A study of Rattus norvegicus with 24 samples.

Results

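Immediate early genes are transcribed within minutes of a stimulus, without new protein synthesis. This account follows 8 of them, Fos, Fosl2, Jun, Junb, Egr1, Nr4a1, Arc and Ier2, across brain structures and a pituitary lobe of the rat. They were chosen by name, as the probe sets to which the array annotation gives 1 of these symbols and no other gene, with no filter on intensity. They matched 12 of 31042 probe sets and 8 of 14217 named genes, and each gene was represented by its brightest probe set.

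The data are 24 Affymetrix expression arrays. RNA of 5 male rats was pooled for each, so that n counts pools. The rats were 10 to 13 weeks old, except for array 2 of the neurointermediate lobe, whose label gives 10 to 12 weeks. The neurointermediate lobe of the pituitary (NIL) gave 5 arrays, the rostral ventrolateral medulla (RVLM) 5, the paraventricular nucleus (PVN) 5 and the supraoptic nucleus (SON) 4, all from the spontaneously hypertensive rat (SHR). The RVLM of Wistar-Kyoto rats (WKY), the normotensive control strain, gave 5 more. No treatment is named for any group. The labels read here do not say how or at what time of day the rats were killed.

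Most of the 8 genes encode transcription factors. Fos and Fosl2 pair with Jun and Junb to form AP-1, Egr1 is a zinc finger factor, and Nr4a1 (Nur77) is an orphan nuclear receptor. Arc encodes a synaptic protein that takes part in receptor uptake, and Ier2 a small nuclear protein. In nerve and endocrine cells, calcium and cAMP signals reach such genes through CREB at cAMP response elements, and growth factor signals through serum response factor at CArG boxes. Their mRNAs decay quickly, and Fos and Egr1 are widely used as marks of recent activity in the PVN, the SON and the brainstem.

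Promoters are shown for Egr1, Nr4a1 and Ier2, the members that were higher in NIL than in each other SHR structure. The windows run from 250 bases before to 50 bases after the annotated start and come from RefSeq on the GRCr8 build. They lie at chr18:26736828-26737127 for Egr1, chr7:134259888-134260187 for Nr4a1 and chr19:40399123-40399422 for Ier2, each on the plus strand and written 5′ to 3′. Capitals mark CArG boxes and TGACG, the core of the cAMP response element, on either strand.
Egr1: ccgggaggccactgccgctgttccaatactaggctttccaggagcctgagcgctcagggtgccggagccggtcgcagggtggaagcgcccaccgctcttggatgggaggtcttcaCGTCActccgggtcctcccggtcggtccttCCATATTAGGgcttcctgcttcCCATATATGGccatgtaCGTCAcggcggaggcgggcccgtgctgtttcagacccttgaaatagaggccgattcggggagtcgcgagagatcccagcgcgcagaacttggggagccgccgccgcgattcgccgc
Nr4a1: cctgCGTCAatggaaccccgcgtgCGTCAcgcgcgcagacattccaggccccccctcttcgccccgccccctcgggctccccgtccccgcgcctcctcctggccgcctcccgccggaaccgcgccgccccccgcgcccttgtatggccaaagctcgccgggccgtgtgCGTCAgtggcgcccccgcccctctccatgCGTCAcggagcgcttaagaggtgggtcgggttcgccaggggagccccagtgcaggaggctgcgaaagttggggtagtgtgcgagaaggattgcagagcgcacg
Ier2: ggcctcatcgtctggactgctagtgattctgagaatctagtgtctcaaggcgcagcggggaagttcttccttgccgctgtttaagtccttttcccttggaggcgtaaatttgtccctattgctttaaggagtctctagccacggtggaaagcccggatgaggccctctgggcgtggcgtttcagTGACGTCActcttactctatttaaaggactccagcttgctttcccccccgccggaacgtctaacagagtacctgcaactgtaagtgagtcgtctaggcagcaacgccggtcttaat

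The core TGACG, searched on both strands, occurred 2 times in the Egr1 window, 4 times in that of Nr4a1 and 2 times in that of Ier2. The 2 copies of Ier2 overlap in a full element, TGACGTCA, whose first base lies 66 bases before the start. The Egr1 window held 2 CArG boxes, which begin 105 and 83 bases before the start. Nr4a1 held 1 Egr site, GCGNGGGCG, 73 bases before the start. Of all 33469 promoter windows of this length, 21.2% held the core, 1.83% the full element, 1.64% a CArG box and 4.98% an Egr site. Windows were matched for 5 members, of which 4 held the core (Junb, Egr1, Nr4a1 and Ier2), 1 the full element (Ier2), 1 a CArG box (Egr1) and 2 an Egr site (Fosl2 and Nr4a1). None of the 5 held the AP-1 site TGANTCA, found in 7.33% of all windows, or the Nr4a response element AAAGGTCA, found in 1.43%. A match describes the letters in the window and does not show that a factor binds there.

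The values are intensities on a linear scale, on which each array had a trimmed mean of about 100 and a median between 35.9 and 46.5. Tests used log2 intensities after each array was shifted to a common median. Pomc, the prohormone of melanotrophs, read 611 to 1243 in NIL and at most 16.2 elsewhere. Avp and Oxt read 3439 to 5610 in PVN and SON, and Pnmt, which marks adrenergic neurons, read 113 to 251 in the RVLM and at most 16.5 elsewhere. The list of catecholamine genes that holds Pnmt, 3 of 4 measured, did not set the RVLM apart as a whole. Its summed intensity was 279.1 to 433 in SHR RVLM and 441.6 to 555.3 in SON. PVN array 3 stood apart: its 3' over 5' signal ratio was 7.01 for Actb and 3.33 for Gapdh, against 2.18 to 3.86 and 1.07 to 1.43 on the other 23 arrays. Its Ptgds, a meningeal gene, read 4749, and its Crh 38.1, against 231 to 451 and 393 to 514 in the other 4 PVN pools. In dissected tissue, fewer cells of a type and less mRNA per cell cannot be told apart.

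Egr1, Nr4a1 and Ier2 were higher in NIL than in RVLM, PVN and SON, Jun and Arc were lower in NIL in some of these comparisons, and Fos passed the test in none of the 7 comparisons made. In NIL against RVLM, 5 of the 8 members passed at an adjusted p under 0.05, 3 of them higher and 2 lower, where 56.4% of all genes passed, 31.7% higher and 24.7% lower. In NIL against PVN, 4 passed, 3 higher and 1 lower, where 46.1% of all genes passed, 23.9% higher and 22.2% lower. In NIL against SON, 3 passed, each higher, where 40.9% of all genes passed, 21.2% higher and 19.7% lower. The members' shares were thus near those of all genes. The median log2 difference of the members was 0.76, 0.05 and 0.31 in these comparisons, against 0.11, 0.02 and 0.03 over all genes. The 3 comparisons share the NIL arrays. The plots of intensity and of log2 differences show the 8 genes side by side.

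**Figure D1:**
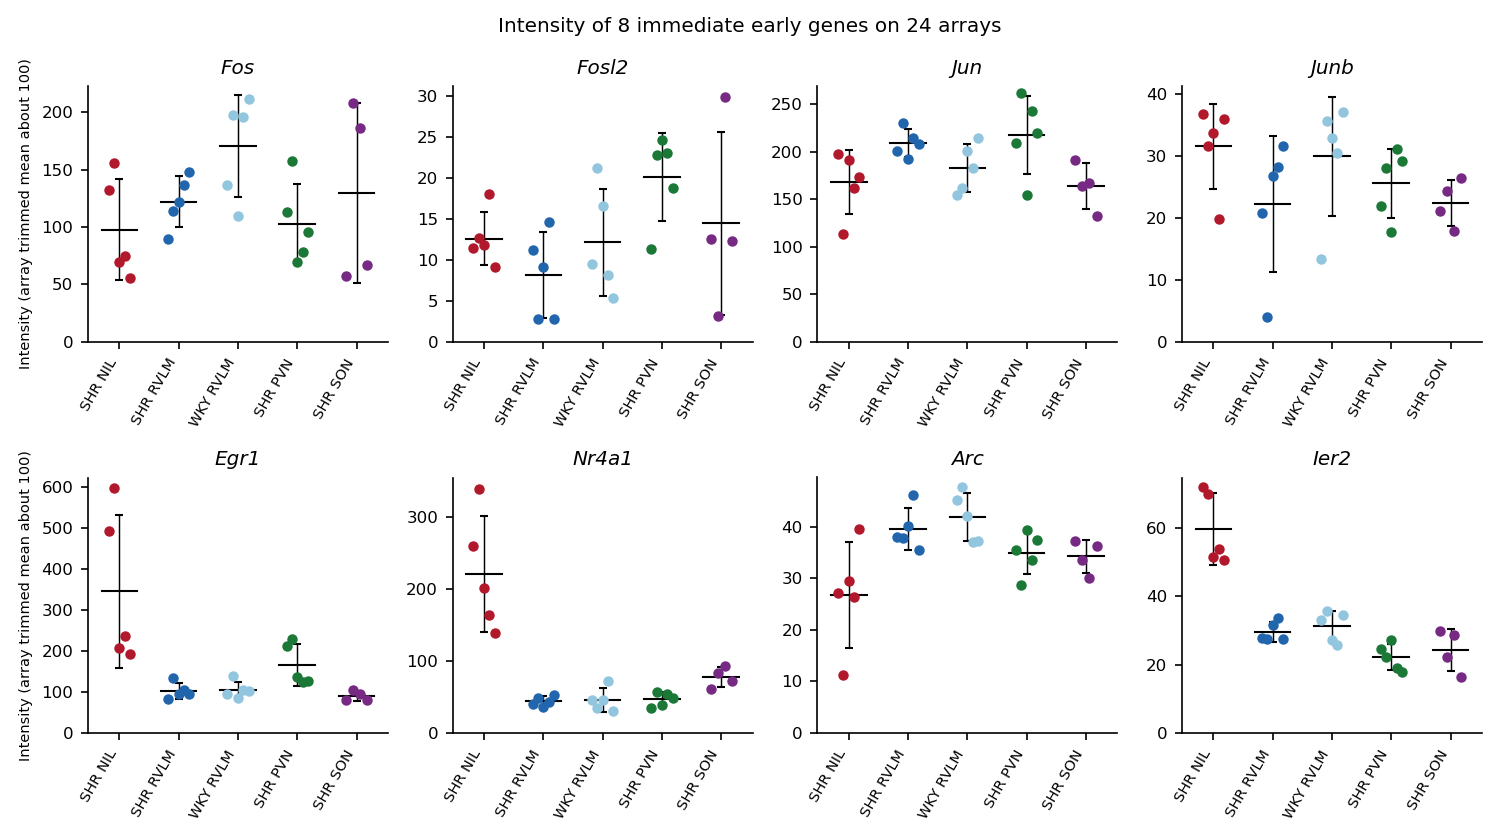
Deposited intensity (linear axis, starting at 0) of the brightest probe set of each of the 8 genes, with 1 point per array, a bar at the group mean and an error bar of 1 SD (n = 5 arrays, 4 for SON). Nr4a1 and Ier2 in NIL lie above every array of the other groups, while Fos spreads widely within NIL, PVN and SON.

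**Figure D2:**
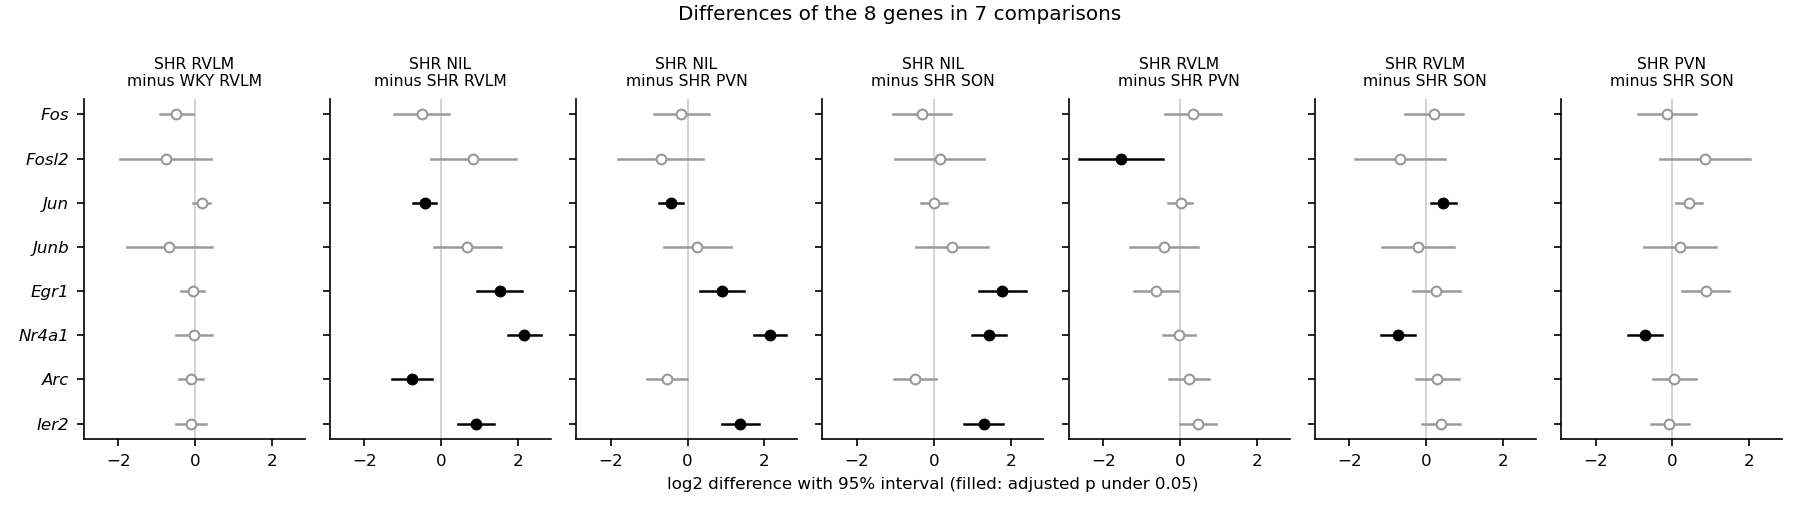
Difference in log2 intensity of each of the 8 genes in 7 comparisons (horizontal axis, first group minus second), with its 95% interval from limma. Filled points passed at an adjusted p under 0.05: Nr4a1 in 5 comparisons, Egr1, Ier2 and Jun in 3 each, Fosl2 and Arc in 1 each, and Fos and Junb in none.

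Nr4a1 read 259.9, 339, 201.5, 164 and 139 in NIL, against 40.75, 49.3, 35.6, 43.05 and 52.5 in SHR RVLM, 34.4, 57.0, 39.1, 54.6 and 48.9 in PVN, and 60.7, 83.9, 93.6 and 72.4 in SON. Every NIL pool was above every pool of the other structures. On the log2 scale Nr4a1 was higher in NIL by 2.17 ± 0.20 (SE) against RVLM, by 2.15 ± 0.20 against PVN and by 1.44 ± 0.22 against SON, with adjusted p of 6.8e-09, 1.3e-08 and 1.4e-05 in limma. These are folds of 4.49, 4.44 and 2.71. The SHR means ran in the order NIL (221 ± 80.4, SD, n = 5), SON (77.6 ± 14.2, n = 4), PVN (46.8 ± 9.78, n = 5) and RVLM (44.2 ± 6.74, n = 5). PVN and RVLM, the last neighbours in that order, differed by less than their spread, with a log2 difference for RVLM minus PVN of -0.02 (95% interval -0.44 to 0.40).

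Egr1 read 492, 596.5, 208, 237 and 193 in NIL, against 83.8, 133, 93.85, 105 and 96.2 in SHR RVLM, 213, 229.8, 136, 125 and 127 in PVN, and 80.65, 106, 94.0 and 79.3 in SON. NIL arrays 1 and 2 were far above the other 3, which overlapped with PVN arrays 1 and 2. Egr1 was higher in NIL by 1.52 ± 0.28 on the log2 scale against RVLM and by 1.78 ± 0.29 against SON (adjusted p 8.3e-05 and 4.9e-05), with no overlap between the groups. Against PVN it was higher by 0.90 ± 0.28 (adjusted p 0.0126), and the groups overlapped. Without NIL array 2 the difference from PVN was 0.66 (adjusted p 0.0505), and without arrays 1 and 2 it was 0.34 (adjusted p 0.275). The SHR means ran in the order NIL (345 ± 186), PVN (166 ± 51.0), RVLM (102 ± 18.8) and SON (89.9 ± 12.5). Below NIL no neighbours passed: RVLM minus PVN was -0.61 (adjusted p 0.102) and RVLM minus SON 0.26 (adjusted p 0.556).

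Ier2 read 71.9, 70.0, 51.3, 53.9 and 50.5 in NIL, against 27.8, 27.5, 31.5, 33.7 and 27.4 in SHR RVLM, 24.6, 22.2, 27.3, 19.1 and 17.97 in PVN, and 29.75, 22.3, 28.7 and 16.45 in SON. No NIL pool overlapped with another structure, and only in NIL was Ier2 above the array median, on 5 of 5 arrays. It was higher in NIL by 0.91 ± 0.23 on the log2 scale against RVLM, by 1.38 ± 0.23 against PVN and by 1.30 ± 0.24 against SON (adjusted p 0.00188, 3.3e-05 and 0.000162). RVLM, SON and PVN, with means of 29.6, 24.3 and 22.3, followed NIL in that order, and neither RVLM and SON nor SON and PVN passed the test. Groups did not overlap for 4 members in NIL against RVLM (Jun, Egr1, Nr4a1 and Ier2), where that held for 47.4% of all genes, for 2 against PVN (32.7% of all genes) and for 3 against SON (41.6%).

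The NIL pools differed in their content of anterior pituitary mRNA in the same direction as these genes. The summed intensity of 6 anterior hormone genes (Gh1, Prl, Lhb, Fshb, Tshb and Cga, all 6 measured) was 11779, 16654, 5844, 5738 and 2946 on NIL arrays 1 to 5, and 95.8 to 237.6 on arrays of the other structures. Growth hormone, Gh1, read 5471, 6068, 2957, 2494 and 693, and prolactin, Prl, read 2586, 3677, 331, 523 and 190. Arrays 1 and 2, the highest for Egr1, Nr4a1, Fos and Ier2, were also the highest for each of these 6 genes except Tshb, of which array 4 held more than array 1. The part of anterior pituitary tissue in the levels of Egr1, Nr4a1 and Ier2 was not tested. Without NIL arrays 1 and 2, Nr4a1 was higher by 1.81, 1.79 and 1.08 on the log2 scale against RVLM, PVN and SON. Ier2 was then higher by 0.70, 1.18 and 1.10, with adjusted p of 0.0379, 0.00168 and 0.00496 in limma. Egr1 differed by 0.95, 0.34 and 1.21, with adjusted p of 0.00156, 0.275 and 0.000459. The 3 NIL arrays kept in these values held anterior hormone sums of 5844, 5738 and 2946, each above that of any array of another structure.

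**Figure D3:**
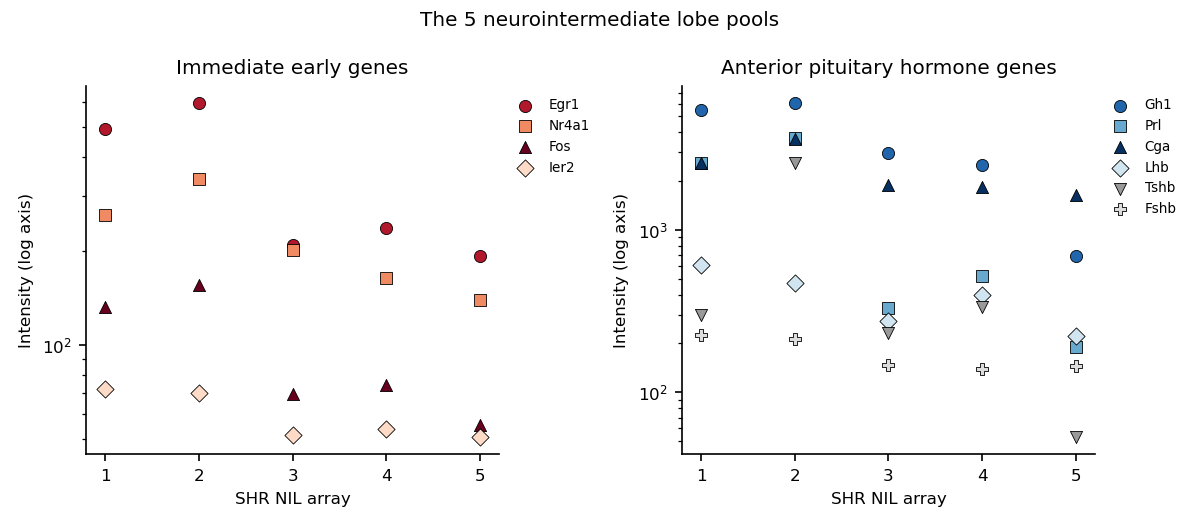
Intensity (log axis) on the 5 NIL arrays of 4 immediate early genes (left) and 6 anterior pituitary hormone genes (right), with 1 symbol per gene and array. Arrays 1 and 2 hold the highest Egr1 (492 and 596.5) and the highest Gh1 (5471 and 6068).

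Jun, the main partner of Fos, was lower in NIL. It read 198, 113, 192, 162 and 174 in NIL, against 201, 231, 193, 215 and 208 in SHR RVLM and 209.7, 262, 154, 243 and 220.2 in PVN. NIL array 2 was the lowest, and once the arrays were scaled to a common median no NIL pool overlapped with RVLM. Jun was lower in NIL by 0.44 on the log2 scale against RVLM (log2 difference -0.44 ± 0.15, adjusted p 0.0189) and by 0.42 against PVN (-0.42 ± 0.15, adjusted p 0.0288). Without NIL array 2 neither passed (adjusted p 0.0759 and 0.11), and the difference from PVN was also lost without NIL array 4 (adjusted p 0.062) or PVN array 1 (0.0664) or 2 (0.089). Against RVLM the call was also lost with unscaled values (adjusted p 0.0539), and against PVN with no intensity trend (0.054) or only the arrays of these 2 groups (0.0714). Without NIL arrays 1 and 2 the adjusted p was 0.0551 against RVLM and 0.0822 against PVN. Its 3 probe sets disagreed: the second brightest gave -1.19 and -1.08 in these comparisons (adjusted p 2.3e-06 and 1.25e-05), while the dimmest gave -0.04 and 0.08 (adjusted p 0.885 and 0.795). Against SON the brightest probe set gave 0.01 (95% interval -0.32 to 0.34) and the second brightest gave -0.57 (adjusted p 0.0132).

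Arc, which is made mainly in neurons, read 27.1, 11.2, 29.5, 26.4 and 39.65 in NIL, against 38.1, 37.8, 40.3, 46.3 and 35.6 in SHR RVLM. NIL array 2 was far below the others and array 5 within the RVLM range. The log2 difference was -0.76 ± 0.25 (adjusted p 0.0148), and without NIL arrays 1 and 2 it was -0.44 (adjusted p 0.103). The summed intensity of 7 neuronal marker genes was 2220 to 2510 in NIL and 11650 to 13960 in SHR RVLM, and its part in the level of Arc was not tested. Arc did not pass in NIL against PVN (-0.53, adjusted p 0.105) or against SON (-0.48, adjusted p 0.181). It was above the array median only in the RVLM, on 2 of 5 SHR and 4 of 5 WKY arrays.

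Fos read 132.5, 156, 69.8, 74.6 and 55.4 in NIL, against 89.75, 114, 121.5, 136 and 148 in SHR RVLM, 113, 158, 69.6, 77.8 and 95.4 in PVN, and 57.25, 208, 186 and 66.7 in SON. In SON arrays 2 and 3 were far above the other 2, and in NIL and PVN arrays 1 and 2 held the highest values. The groups overlapped in every comparison. The SHR means were 129.5 ± 78.6 in SON, 122 ± 22.3 in RVLM, 103 ± 34.9 in PVN and 97.6 ± 43.9 in NIL, and no neighbours in that order differed by the test. On the log2 scale the order of SON and RVLM turned, with means of 6.95 in RVLM and 6.74 in SON, and RVLM minus SON was 0.20 (adjusted p 0.729). The intervals were wide: NIL minus RVLM was -0.51 (95% interval -1.22 to 0.21) and PVN minus SON -0.14 (-0.90 to 0.62). Without NIL arrays 1 and 2, Fos passed as lower in NIL than in RVLM (-0.98, adjusted p 0.0352). The dimmer Fos probe set read 3.38 to 24.4 over all arrays and passed as lower in that comparison with every array in (-1.30 ± 0.44, adjusted p 0.0170).

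Fosl2 and Junb lay low on these arrays. Junb, which forms AP-1 with Fos but activates fewer promoters than Jun, read 19.8 to 36.8 in NIL, 3.905 to 31.6 in SHR RVLM, 17.6 to 31.1 in PVN and 17.8 to 26.3 in SON. It passed in no comparison, and its difference in NIL minus RVLM was 0.68 (95% interval -0.20 to 1.56). Fosl2 read 9.12 to 17.99 in NIL and 3.12 to 29.9 in SON, and these groups overlapped. Fosl2 was under the array median on all 24 arrays and Junb on all but 1, and their means lay at the 21.8th and the 38.4th percentile of all probe sets. The pooled within-group SD was 0.86 for Fosl2 and 0.72 for Junb on the log2 scale, above that of 87.5% and 82.6% of all 14217 genes. Dim genes spread more on this scale: the median SD was 0.268 over all genes and 0.227 over the 10573 with mean values over the 40th percentile, which leave out Fosl2 and Junb. Of these brighter genes, 96.9% had a smaller SD than Fos (0.61), 93.3% than Egr1 (0.47), 88.0% than Nr4a1 (0.38), 84.7% than Arc (0.35), 76.8% than Ier2 (0.30) and 61.2% than Jun (0.25). NIL arrays held 79.9% of the squared deviations of Arc and 57.6% of those of Egr1. SHR RVLM arrays held 71.7% of those of Junb.

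Between the brain structures of SHR, 1 or 2 of the 8 members passed in each comparison. In RVLM against PVN 1 of 8 passed, as lower, where 35.7% of all genes passed, 15% as higher and 20.8% as lower. For 0 members did the groups not overlap, where that held for 21.6% of all genes. Fosl2, a Fos relative, read 11.2, 2.70, 9.09, 14.6 and 2.80 in RVLM, against 11.3, 22.8, 24.7, 23.0 and 18.8 in PVN. RVLM arrays 2 and 5 were the lowest and the groups overlapped. It fell by 1.54 ± 0.53 on the log2 scale (adjusted p 0.0314), at intensities near the bottom of the scale. The call was lost without RVLM array 2 or 5 or PVN array 2, 3 or 4 (adjusted p 0.0534 to 0.095), and its dimmer probe set gave 0.64 (adjusted p 0.387).

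In RVLM against SON 2 of 8 passed, 1 higher and 1 lower, where 35.7% of all genes passed, 15.8% higher and 19.9% lower. Nr4a1 was lower in RVLM than in SON (log2 difference -0.73 ± 0.22, adjusted p 0.0126) and Jun was higher (0.45 ± 0.16, adjusted p 0.036). Jun in SON read 191, 164, 167 and 132, all under the SHR RVLM pools, and the second probe set also gave a higher level in RVLM (0.61, adjusted p 0.00924). Without SON array 3, Nr4a1 had an adjusted p of 0.052 and Jun of 0.0602. Jun also missed the threshold when any 1 of RVLM arrays 2, 4 and 5 and of SON arrays 2 and 4 was left out (adjusted p 0.0604 to 0.146). For both genes the groups did not overlap, which held for 34.5% of all genes.

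In PVN against SON 1 of 8 passed, as lower, where 10.8% of all genes passed, 6.22% as higher and 4.61% as lower. That is 1539 genes, and 2392 without PVN array 3 and 874 without SON array 3. Nr4a1 was lower in PVN, with a log2 difference of -0.71 ± 0.22 (adjusted p 0.0446), and 7 of 20 other settings or sets of arrays kept that call. Leaving out any 1 of PVN arrays 1, 3, 4 and 5 and of SON arrays 2, 3 and 4 lost it (adjusted p 0.053 to 0.149). Egr1 was 0.87 ± 0.29 higher in PVN with no overlap between groups (adjusted p 0.0719), and without PVN array 4 it passed (1.00, adjusted p 0.048). Jun was 0.43 ± 0.16 higher (adjusted p 0.101) and passed without PVN array 3 (0.53, adjusted p 0.0201). Groups did not overlap for 2 members, Egr1 and Nr4a1, and for 10.2% of all genes.

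In the strain comparison, SHR RVLM against WKY RVLM, 0 of the 8 members passed in limma, where 0.886% of all genes passed, 0.387% as higher and 0.499% as lower. At an unadjusted p under 0.05 there was 1 member, where 8.6% of all genes were. That member was Fos, which read 89.75, 114, 121.5, 136 and 148 in SHR, against 136.5, 198, 109.9, 196 and 212 in WKY. The 3 highest WKY pools were above every SHR pool, and the groups overlapped. The log2 difference was -0.49 ± 0.20 (p 0.0295, adjusted p 0.503, 95% interval -0.92 to -0.06). The dimmer Fos probe set gave -0.23 (p 0.478, adjusted p 0.895 in limma). Egr1 read 83.8 to 133 in SHR and 84.6 to 138 in WKY, and Nr4a1 35.6 to 52.5 in SHR and 30.7 to 72.2 in WKY. The strains thus lay in the same range for both genes. Egr1 differed by -0.06 (95% interval -0.37 to 0.24), Nr4a1 by -0.03 (-0.49 to 0.43), Arc by -0.11 (-0.42 to 0.20), Ier2 by -0.10 (-0.49 to 0.29) and Jun by 0.17 (-0.06 to 0.40). Fosl2 and Junb had the widest intervals, -1.95 to 0.41 and -1.78 to 0.45.

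The next question was whether the members moved together from pool to pool within a group. Each log2 value was taken as its deviation from its group mean, and the 28 pairs of members were correlated over the 24 arrays, with p from 100000 shuffles of arrays within groups (two-sided permutation test) and adjusted over the 28 pairs. Groups of 4 or 5 arrays are too small for a correlation of their own. Of the pairs, 18 were positive and 10 negative, with a median r of 0.06, so the 8 genes did not vary as 1 block. At an adjusted p under 0.05 there were 2 pairs.

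Fos and Egr1 had the highest correlation, with r = 0.76 (permutation p 7e-05, adjusted p 0.002) and Spearman's rho of 0.775 (permutation p 8e-05, adjusted p 0.0022). Both genes deviated the same way on 22 of 24 arrays. On NIL arrays 1 to 5 the deviations of Fos were 0.61, 0.81, -0.33, -0.36 and -0.72, and those of Egr1 0.73, 0.97, -0.53, -0.47 and -0.70. On PVN arrays 1 to 5 they were 0.40, 0.70, -0.43, -0.51 and -0.15 for Fos, and 0.61, 0.54, -0.17, -0.53 and -0.44 for Egr1. SON arrays 2 and 3 were high for both, by 0.91 and 0.75 for Fos but only by 0.24 and 0.07 for Egr1. Without SON arrays 1 and 2, the 2 farthest from the median of Fos, r was 0.81, and without PVN array 3 it was 0.76. With the NIL group left out, which holds the anterior pituitary mRNA, r was 0.69 (adjusted p 0.022). With the mean of all probe sets of a gene, r was 0.405 and the pair did not pass (permutation test, adjusted p 0.32).

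**Figure D4:**
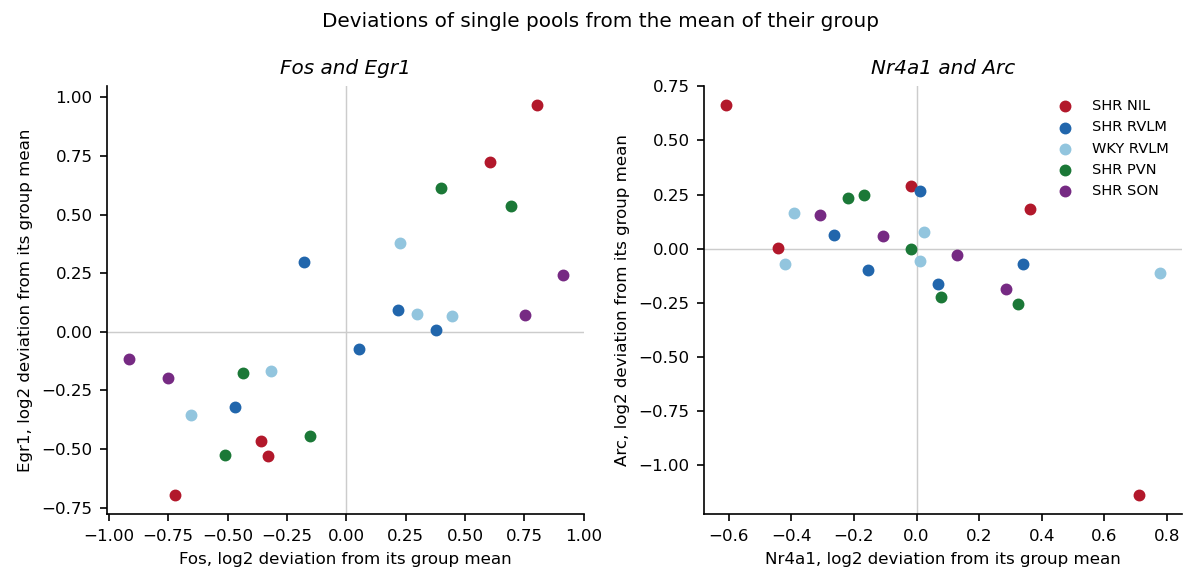
Log2 deviation of each array from the mean of its group, for Fos and Egr1 (left) and for Nr4a1 and Arc (right), with 1 point per array and colours for the 5 groups. Fos and Egr1 have the same sign on 22 of 24 arrays, while the highest and lowest Arc deviations (0.66 and -1.14) are those of NIL arrays 5 and 2.

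Nr4a1 and Arc ran in opposite directions, with r = -0.64 (permutation p 0.0022, adjusted p 0.031). Spearman's rho was -0.54 (permutation p 0.01, adjusted p 0.095), and without the 2 arrays farthest from the median of Nr4a1 r was -0.51. NIL array 2 was the highest for Nr4a1 (339) and the lowest for Arc (11.2). Without it r was -0.50 (adjusted p 0.2), and the pair also missed the threshold without NIL array 5, WKY RVLM array 2 or 4, PVN array 1 or 2, or SON array 3 (adjusted p 0.051 to 0.19). Unadjusted p under 0.05 was also reached by Egr1 and Ier2 (r = 0.59, permutation p 0.0077, adjusted p 0.071), Fos and Nr4a1 (r = 0.54, permutation p 0.013, adjusted p 0.09) and Fos and Arc (r = -0.43, permutation p 0.049, adjusted p 0.28). Jun was weakly correlated with its partner Fos (r = 0.14, adjusted p 0.86).

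**Figure D5:**
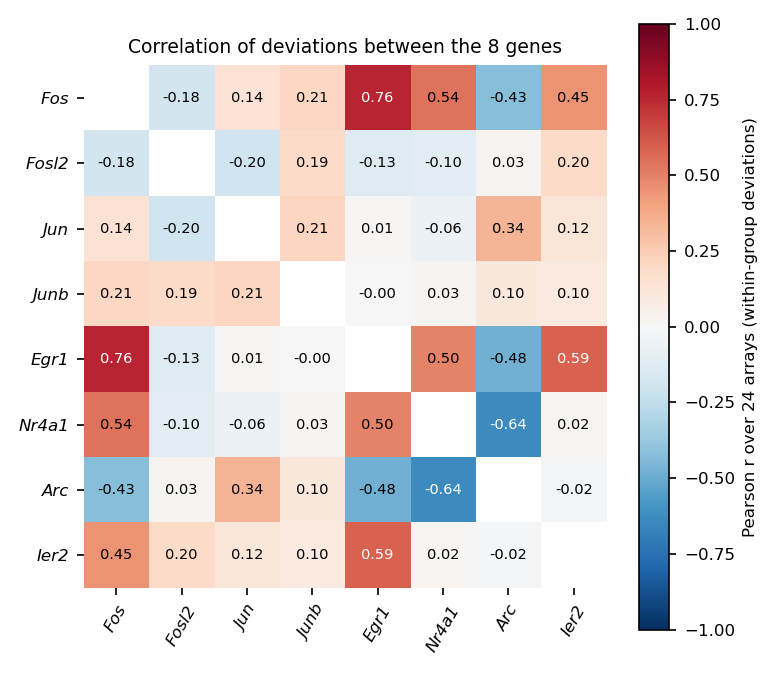
Pearson correlation of within-group log2 deviations over 24 arrays for each pair of the 8 genes (colour scale -1 to 1). The highest is Fos with Egr1 (0.76) and the lowest Nr4a1 with Arc (-0.64).

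Across the 10572 other genes over the 40th percentile of mean value, Egr1 ranked 1 by its correlation with Fos and Nr4a3, the third member of the Nr4a receptor family, ranked 2 (r = 0.75). These ranks describe deviations on the same 24 arrays, and Nr4a3 was singled out after its value was seen. Nr4a1 ranked 213, Ier2 809, Jun 5639 and Arc 10489, and over all these genes r had a median of 0.16 and 5% of them lay over 0.48. The ranks moved with the arrays and settings: with the NIL group left out Egr1 ranked 34 and Nr4a3 51, without NIL arrays 1 and 2 they ranked 18 and 29, and with values as deposited 1 and 2. Without the SON group they ranked 1 and 54, and without the PVN group 8 and 1. Nr4a1 ranked 2502 without the NIL group (r = 0.35), 2034 without NIL arrays 1 and 2 (r = 0.36) and 5 without the WKY RVLM group. With values as deposited the median r over all these genes was -0.002. Nr4a3 read 48.5, 63.8, 35.5, 29.0 and 23.5 in NIL, so its highest pools were again arrays 1 and 2.

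The genes most like the mean deviation of the 8 members were Snrpd2, a spliceosome component (r = 0.83), Naxe (0.78), Itpa (0.77), Gemin7 (0.77), Psma1, a proteasome subunit (0.77), Sirt3 (0.76), Ndufa7 (0.76), Creb3 (0.76), Rpl27, a ribosomal protein gene (0.76), and Sec61b (0.75), of 10486 genes. None of the 10 is in the lists of immediate early or later genes used here. The mean was taken over unscaled deviations, so Fosl2 and Junb, with the largest SD (0.86 and 0.72), could move it most. By correlation with it, Fos ranked 273, Ier2 496, Egr1 871, Nr4a1 3253, Jun 4725 and Arc 9348 of 10573 genes. A positive r with this mean was common: Dusp1, near the middle at rank 5498, had r = 0.20. The list was made only on values shifted to the common median, and whether it holds under another scaling was not tested.

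Array quality and cell type markers were set beside Fos over the same deviations, in 17 relations. None passed after adjustment, the lowest adjusted p being 0.34. Fos had r = -0.42 with the array median (permutation p 0.023) and r = 0.45 with the anterior pituitary genes (permutation p 0.04). The scaling subtracted the array median from Fos, which by itself adds a negative part to the first of these. Spearman's rho was -0.41 and 0.39, and r without the 2 arrays farthest for Fos was -0.52 and 0.51. Those were SON arrays 1 and 2, so NIL arrays 1 and 2 stayed in for Fos. Without NIL arrays 1 and 2 no relation of Fos passed (permutation test, lowest adjusted p 0.44). For Egr1, added after the data were seen, r with the anterior pituitary genes was 0.66 (permutation p 0.037, adjusted p 0.41) and rho 0.52, but 0.16 without NIL arrays 1 and 2, so that it rests on those arrays.

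Other genes of the same response were counted from fixed lists. Of 19 other immediate early transcription factors measured, 8 were higher and 3 lower in NIL than in RVLM, where 31.7% of all genes were higher and 24.7% lower (median log2 difference 0.34, against 0.11 for all genes and 0.76 for the 8 members). Nr4a2, a relative of Nr4a1, averaged 64.9 ± 16.3 in NIL and 24.2 ± 8.63 in RVLM (log2 difference 1.38, adjusted p 0.000183). Egr2 averaged 48.5 ± 16.1 in NIL and 19.8 ± 2.18 in RVLM (1.13, adjusted p 0.000228) and Klf10 227 ± 31.7 and 79.8 ± 7.51 (1.41, adjusted p 3.5e-08). Against PVN 7 rose and 2 fell (23.9% and 22.2% of all genes), with Klf10 (1.05), Ier3 (0.91) and Nr4a2 (0.74) higher and Myc lower (-1.95). Against SON 4 rose and 2 fell (21.2% and 19.7% of all genes), with Nr4a2 (1.37) and Egr2 (1.16) higher and Myc (-2.65) and Fosl1 (-1.05) lower.

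The immediate early effectors, which include phosphatases, small GTPases and the clock gene Per1, were counted in the same way. Of 27 measured, 13 rose and 1 fell in NIL against RVLM, where 31.7% of all genes were higher and 24.7% lower. Against PVN 11 rose and 1 fell (23.9% and 22.2% of all genes), and against SON 9 rose and 2 fell (21.2% and 19.7%). Markers of some cell types were also higher in NIL, among them 4 of 4 melanotroph genes in each of these comparisons, and markers of others were lower. Lower than in RVLM were 6 of 7 neuronal, 6 of 6 astrocyte and 5 of 5 oligodendrocyte genes, with 0 of them higher. Some genes of further lists were higher. Against RVLM these included 6 of 7 meningeal, 5 of 6 blood, 5 of 7 microglial and 6 of 6 anterior pituitary genes. Against PVN the same 4 lists gave 7, 5, 4 and 6, and against SON 1, 2, 3 and 6. Avp and Oxt, the 2 magnocellular genes, were higher than in RVLM and lower than in PVN and SON. Of 5 mural and 6 endothelial genes, 2 and 1 were higher than in RVLM, and 1 and 3 lower. The part of these cell types in the counts of NIL against the other structures was not tested. Per1 averaged 133 ± 28.8 in NIL and 26.9 ± 15.6 in RVLM (log2 difference 2.39, adjusted p 1.3e-06), and Rasd1, a small GTPase induced by glucocorticoids, 285 ± 112 and 56.1 ± 10.7 (2.20, adjusted p 1.6e-09). Dusp6, which dephosphorylates ERK, was higher by 1.55 against PVN and by 1.46 against SON, Gem by 1.75 and 1.74, and the survival gene Mcl1 by 1.43 and 1.35. Ptgs2 was lower than in SON by 1.71 (log2 difference -1.71, adjusted p 0.000295). Of 7 later activity-dependent genes, 3 rose and 3 fell in NIL against RVLM (31.7% and 24.7% of all genes). The neuropeptide precursor gene Vgf averaged 19.9 ± 3.28 in NIL and 619 ± 66.8 in RVLM (-5.06), and Bdnf 56.3 ± 13.9 and 24.9 ± 5.02 (1.07).

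Of the regulators that act on these genes, 12 of 22 measured were higher and 4 lower in NIL than in RVLM (31.7% and 24.7% of all genes), among them Crtc1, a CREB coactivator (1.39), and Elk3, a partner of serum response factor (1.15), with Camk4, a kinase that acts on CREB, lower (-2.93). Against PVN 5 rose and 6 fell (23.9% and 22.2% of all genes), and against SON 6 rose and 6 fell (21.2% and 19.7%). Of 11 partners and corepressors, 3 rose and 1 fell against RVLM (31.7% and 24.7% of all genes). Against PVN 3 rose and 1 fell (23.9% and 22.2%), and against SON 2 rose and 2 fell (21.2% and 19.7%). Nab2, a corepressor that binds Egr1 and is induced by it, averaged 110.5 ± 17.6 in NIL, against 37.8 ± 9.04 in RVLM, 47.7 ± 9.84 in PVN and 55.1 ± 14.3 in SON, with log2 differences of 1.48, 1.18 and 1.02 (adjusted p 3.5e-07, 1.3e-05 and 0.000192).

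The same lists were counted between the brain structures. In RVLM against PVN, 2 of the 19 factors rose and 3 fell, and 5 of the 27 effectors rose and 6 fell, where 15% of all genes were higher and 20.8% lower. Rasd1 was lower in RVLM by 2.12 and Plk2 by 1.27 (log2 differences -2.12 and -1.27). In RVLM against SON, 2 factors rose and 5 fell, and 3 effectors rose and 7 fell, where 15.8% of all genes were higher and 19.9% lower. Jund, a partner of Fos, averaged 1699 ± 105 in RVLM and 984 ± 114 in SON (0.87, adjusted p 7.5e-05). In PVN against SON, where 6.22% of all genes were higher and 4.61% lower, 1 factor rose and 1 fell, Jund (0.73, adjusted p 0.00299) and Ier3 (-1.41, adjusted p 0.00471), and of the effectors 0 rose and 1 fell, Ccn2 (-1.61, adjusted p 0.036). PVN array 3 was the highest PVN pool for these 3 genes. In SHR RVLM against WKY RVLM, where 0.886% of all genes passed, 0 of the 19 factors and 1 of the 27 effectors passed in limma. That was Sgk1, a kinase induced by corticosteroids, which read 695.5, 350.5, 464, 395 and 285 in SHR, against 197, 201, 236, 201 and 234 in WKY (0.94 ± 0.17, adjusted p 0.0149). Every SHR pool was above every WKY pool for Sgk1, while no member showed that separation between the strains, where 2.61% of all genes did.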

How the data were processed

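Messenger RNA was measured on 24 arrays, each of RNA pooled from 5 rats. Per the submitters' processing notes GCOS 1.2 made the deposited intensity values, which are linear. No source read here gives its settings. Each array's 2% trimmed mean was 100.02 or 100.03, so the authors' values are scaled per array.

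Of 31099 probe sets, 57 controls were left out. By the array annotation, 20826 of the others carried 1 gene, 436 several and 9780 none. Each array's log2 intensities (pseudocount 0) were shifted to 1 common median. Differences were fitted on all 31042 probe sets with limma 3.58.1 in R 4.3.3 (lmFit, eBayes with an intensity trend, Benjamini-Hochberg). The strain comparison used the 10 RVLM arrays, and the 6 structure comparisons used all 19 SHR arrays. Whether structures share rats is not stated, and pools were treated as independent, so p-values measure the spread between pools. Correlations used Python 3.11.15 and numpy 2.4.6. The fit and the correlation test were checked on simulated data.

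The members and gene lists were chosen with earlier results of these data known. Besides the members, the genes named were at most 4 called genes per list and comparison with the largest differences, the 10 genes most like the mean of the members, and genes said to be singled out afterwards. Alternatives were scaling, pseudocounts of 16 and 64, a filter at the 40th percentile, no trend, array weights, the replicate block, other probe sets and arrays left out. Promoters were matched by symbol. The number of arrays limits the precision.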

Additional observations from a re-analysis of the deposited data

Results flagged for a closer look

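Junb was the only member with a pool set apart from its group on the log2 scale, with each array shifted to the common median. The gap was large for the group's whole range (Dixon's test at the 95% level, 40 groups of 4 or 5 arrays tested). This held in 4 of its 5 groups, each time for a low pool. NIL array 4 read 19.8 against 31.5 to 36.8 in the other NIL pools (gap over range 0.746). SHR RVLM array 2 read 3.905 against 20.8 to 31.6 (0.771), and WKY RVLM array 1 read 13.3 against 30.4 to 37.1 (0.796). PVN array 3, the array with the high 3' over 5' ratios, read 17.6 against 21.9 to 31.1 (0.736). The gaps were taken after the shift, while the intensities given here are as deposited. In PVN the shifted deviations were -0.443 for array 3 and 0.012 to 0.175 for the other pools. On the deposited values the PVN gap is a smaller part of the range. By chance alone about 1 group in 20 shows a gap over the limit of the test. The Junb probe set was under the array median on all but 1 of the 24 arrays.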

How the results depend on the processing

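The calls of Nr4a1, Egr1 and Ier2 in NIL against RVLM and SON, and of Nr4a1 and Ier2 in NIL against PVN, held in every setting run, and no called member changed direction. The 0 calls between strains and the 3 in NIL against SON stayed in every setting, and NIL against RVLM gave 4 to 6. Leaving out 1 array gave 4 to 5 members in NIL against RVLM, 2 to 5 against PVN (2 without NIL array 2), 0 to 1 in RVLM against PVN, 0 to 2 in RVLM against SON (0 without SON array 3), 0 to 1 in PVN against SON, and 1 to 4 correlated pairs. Leaving out NIL arrays 1 and 2, chosen after the data were seen, gave 2 members in NIL against PVN and 1 pair. RVLM against PVN gave 0 with the filter, which leaves Fosl2 untested, and 0 with the mean of all probe sets of a gene, and array weights put Ier2 (0.62, adjusted p 0.0328) in place of Fosl2. RVLM against SON gave 1 with no trend, a pseudocount of 64, quantile normalization or unscaled values. PVN against SON gave 0 with either pseudocount, no trend or only the arrays of the 2 groups, and 3 with array weights. The pairs were 1 with a pseudocount of 64, Spearman correlation or without the NIL, PVN or SON group, and 0 with the mean of all probe sets, where Fos and Egr1 had r = 0.405 (adjusted p 0.32). That mean brings in the dim second Fos probe set, whose part in the change was not tested. The cause of the other changes was not tested either. All genes called between strains were 126, and 62 with no trend. In PVN against SON they were 1539, against 2847 with array weights, 586 with only 2 groups, 2392 without PVN array 3 and 874 without SON array 3.

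Replicate numbers were shared by groups, and the labels do not say whether they pair the pools. For no 2 groups did every same-numbered pair of arrays correlate over 0.1 in its deviations, a cut-off that cannot exclude pairing. For PVN and SON these correlations were 0.079 to 0.166. Their mean was 0.109, against -0.029 for arrays of different numbers. The replicate block gave 2 calls in RVLM against PVN (Fosl2 and Egr1 lower), 1 in RVLM against SON, 1 in PVN against SON (Egr1 in place of Nr4a1), 2 pairs (Fos with Egr1, and Egr1 with Ier2 in place of Nr4a1 with Arc, which missed the threshold at r = -0.597 and adjusted p 0.068), ranks of 8 for Egr1 and 80 for Nr4a3 by correlation with Fos, and 1 relation of Fos, with the array median (adjusted p 0.012), in place of 0. The scaling subtracted the array median from Fos, so part of that relation is built in. Low signal limits Fosl2 and Junb, and Arc and Ier2 in most groups.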

Other observations

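Lists of stress-induced genes were counted beside the members. In NIL against RVLM, where 31.7% of all genes were higher and 24.7% lower, 0 of 9 heat shock genes measured rose and 5 fell, among them the small heat shock protein genes Cryab (159 ± 9.20 in NIL and 667 ± 72.2 in RVLM, log2 difference -2.16, adjusted p 1.25e-07) and Hspb1 (261 ± 32.1 and 682 ± 95.6, -1.47, adjusted p 0.00127). Also lower in NIL than in RVLM were 6 of 6 astrocyte and 5 of 5 oligodendrocyte markers. The part of cell content in the counts of these stress lists was not tested. Against PVN 2 heat shock genes rose and 2 fell, where 23.9% of all genes were higher and 22.2% lower. Against SON 1 rose and 3 fell, where 21.2% of all genes were higher and 19.7% lower. Of 11 hypoxia-induced genes, 3 rose and 5 fell in NIL against RVLM, and likewise against PVN and against SON. The peptide gene Adm averaged 247 ± 37.8 in NIL and 27.0 ± 9.31 in RVLM (3.18, adjusted p 3.5e-07), while Bnip3 averaged 524 ± 28.5 and 1383 ± 124 (-1.49, adjusted p 3.3e-09). Of 7 glucocorticoid-induced genes, 3 rose and 2 fell against RVLM, 3 and 1 against PVN, and 3 and 3 against SON, with Fkbp5 at 149 ± 19.6 in NIL and 76.8 ± 7.63 in RVLM (0.86, adjusted p 0.000282).

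Between the strains, 0 of the 9 heat shock and 0 of the 11 hypoxia genes passed in limma, and 1 of the 7 glucocorticoid-induced genes did, where 0.886% of all genes passed. That gene, the cell cycle inhibitor Cdkn1a, averaged 127 ± 16.6 in SHR RVLM and 61.6 ± 5.53 in WKY RVLM (1.01 ± 0.12, adjusted p 0.00031).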
